A study of Mus musculus with 12 samples.

Results

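The effect of M2-Exo was examined in MLE-12 cells that had received LPS, by comparing the 3 LPS + M2-Exo libraries with the 3 LPS libraries. These 6 libraries were chosen by their sample labels from the 12 of the series, and the comparison was fitted over all genes of the table with enough counts. MLE-12 is a mouse lung epithelial line immortalised with the SV40 large T antigen under a surfactant protein C promoter, and M2-Exo are exosomes collected from MH-S cells, a mouse alveolar macrophage line, after IL-4 treatment. Both groups were kept in 21% oxygen with 100 ng/mL LPS, 1 of them also received 10 μg/mL M2-Exo, and the labels give 24 h for all libraries. The other 6 libraries of the series came from the same line in 85% oxygen without LPS, either alone (Hyp) or with the same dose of M2-Exo (Hyp + M2-Exo). No library came from cells without injury, and no library received exosomes from another source. All libraries came from 1 cell line, and nothing in the labels says whether replicates were separate cultures, so p-values measure the spread between these libraries, which may be technical.

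LPS, a component of the outer membrane of gram-negative bacteria, is bound by the TLR4 receptor complex and leads through NF-kB and interferon regulatory factors to cytokine and interferon-stimulated genes. Cholesterol synthesis is controlled by SREBP-2, the product of Srebf2, which the sterol sensor SCAP and the INSIG proteins hold in the endoplasmic reticulum when sterols are plentiful and release to the nucleus when they are scarce. Genes of the mevalonate pathway are its classical targets, whereas the oxysterol receptors LXR raise the efflux pump ABCA1. In the alveolar epithelium, type II cells use this lipid metabolism to make surfactant.

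Total counts lay between 18700207 and 19185116 in the LPS libraries and between 16021833 and 18505941 in the LPS + M2-Exo libraries, and genes encoded by mitochondrial DNA took between 3.62% and 4.17% of the counts. The deposited table listed 34745 genes, of which 19429 had a count in these 6 libraries and 13353 had enough counts to be tested. The identity of the cells was checked with marker genes in FPKM, which is per length and can be compared between genes. Surfactant protein C (Sftpc) lay between 26.0 and 28.2 FPKM and the lung transcription factor Nkx2-1 between 51.5 and 56.2 FPKM over the 6 libraries. In contrast, Sftpb reached at most 0.560 FPKM and Sftpa1 at most 0.0188 FPKM, and Sftpd was listed at 0 in every library. Of 11 type II markers, 5 reached a mean of 1 FPKM, and of 8 type I markers all 8 did. Of 8 general epithelial markers 3 did, and Epcam was not among them.

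Markers of macrophages were also present, and they differed between the groups. Of 16 macrophage markers, 11 reached a mean of 1 FPKM, among them Csf1r, Adgre1, Cd68 and Spi1, whereas Arg1 and Mrc1, markers of M2 macrophages, reached at most 0.127 and 0.202 FPKM. Their summed level lay between 112.6 and 123.2 FPKM in LPS and between 91.9 and 102.9 FPKM in LPS + M2-Exo, so the groups did not overlap. In the hyperoxia libraries the same sum lay between 24.9 and 32.9 FPKM. Lower levels of such genes in bulk RNA cannot tell fewer cells of a type from less RNA per cell. Of 7 fibroblast markers, 3 reached a mean of 1 FPKM and 3 stayed under 0.1 FPKM. Dcn, 1 of those above, lay between 341 and 371 FPKM and made up most of their sum. Summed over all 7, they lay between 366.8 and 374.4 FPKM in LPS and between 344.5 and 354.1 FPKM in LPS + M2-Exo. The summed general epithelial markers lay between 290.6 and 304.6 FPKM in LPS and between 306.2 and 321.4 FPKM in LPS + M2-Exo. Neither sum overlapped between the groups, whereas the sums of type I and of type II markers did. Of 8 lymphocyte and erythroid markers, 0 reached a mean of 0.1 FPKM.

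Most transcripts were at similar levels with and without M2-Exo. The median log2 fold change over the 13353 genes was 0.0027, the median size regardless of sign was 0.073, and 520 genes (3.89%) had a fitted size above 0.5. Of the genes tested, 25 passed an adjusted p of 0.05 in the quasi-likelihood test of edgeR, which is 0.187% of them. Of these, 7 rose (0.0524%) and 18 fell (0.135%). At an unadjusted p under 0.05 there were 666 genes with higher values (4.99%) and 815 with lower values (6.1%). Without any model, the 2 groups did not overlap in 1076 genes with higher values (8.06%) and in 1224 genes with lower values (9.17%). Of the 25 genes, 13 passed also without each of the 6 libraries in turn, and Abca1 and Mvk passed only with all 6. Of the 18 that fell, 12 belonged to the lists of sterol synthesis, fatty acid and phospholipid synthesis, and sterol uptake and efflux, and 10 of these 12 to sterol synthesis alone.

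**Figure D1:**
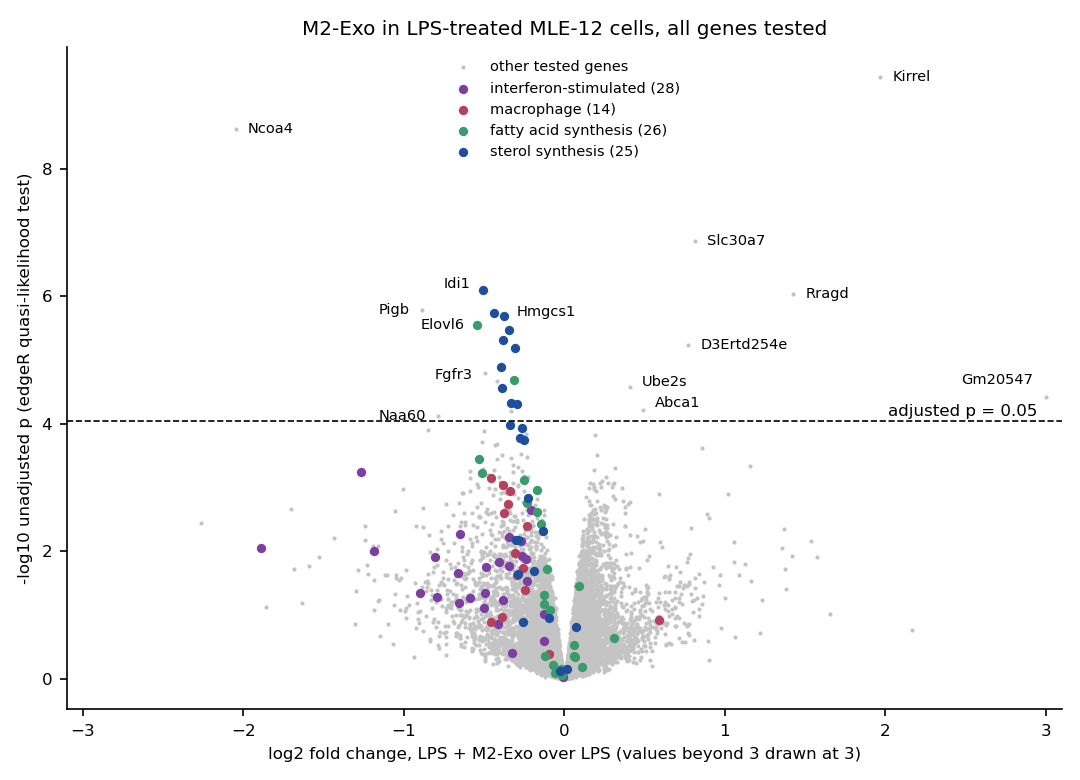
Each point is a gene, with the log2 fold change of LPS + M2-Exo over LPS on the x axis and -log10 of the unadjusted p on the y axis; the dashed line marks an adjusted p of 0.05, and colours mark 4 gene lists. The 10 blue sterol synthesis genes above the line all sit left of 0, at small fold changes that begin at -0.51 for Idi1, while Kirrel, Rragd and Ncoa4 stand far to the sides.

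Sterol synthesis was the function with the most called genes. All 25 genes of the list were tested, 23 had a fold change below 0 (48.9% of all genes tested) and 2 above it (51.1%), 10 fell and 0 rose. The number called was 16 with DESeq2, 13 with the exact test of edgeR, 4 with all 12 libraries in the fit and 1 with the replicate number as a block. At an unadjusted p under 0.05 there were 20 with lower and 0 with higher values (6.1% and 4.99% of all genes tested). In 19 genes all LPS + M2-Exo libraries lay below all LPS libraries (9.17%). The median log2 fold change of the list was -0.29, against 0.0027 over all genes. Summed over the list, CPM, the count relative to the TMM-scaled library size, was 6768, 6778 and 6925 in the LPS libraries and 5552, 5599 and 5519 in the LPS + M2-Exo libraries. In each of the 10 called genes all LPS + M2-Exo libraries lay below all LPS libraries.

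Promoters of the called sterol genes are shown as a description, and their part in the fall was not tested. RefSeq promoter windows of the GRCm38.p6 assembly were held for 7 of the 10 called genes and for 20 of the 25 genes of the list. The 150 bases before the annotated start are printed 5′ to 3′ on the strand of the gene for 6 of them, and capitals mark the CCAAT box, which NF-Y binds, and the core TCACNCCAC of the classical sterol response element, on either strand (ATTGG is CCAAT read on the other strand; N is any base).
Hmgcs1 (chr13:119690201-119690350, plus strand): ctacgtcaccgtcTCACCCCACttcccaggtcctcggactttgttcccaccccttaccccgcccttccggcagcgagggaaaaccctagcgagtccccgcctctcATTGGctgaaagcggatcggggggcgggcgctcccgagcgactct
Idi1 (chr13:8885456-8885605, plus strand): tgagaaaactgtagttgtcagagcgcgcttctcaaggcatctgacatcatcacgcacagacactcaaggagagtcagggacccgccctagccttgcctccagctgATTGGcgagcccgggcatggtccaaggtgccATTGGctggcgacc
Mvk (chr5:114444119-114444268, plus strand): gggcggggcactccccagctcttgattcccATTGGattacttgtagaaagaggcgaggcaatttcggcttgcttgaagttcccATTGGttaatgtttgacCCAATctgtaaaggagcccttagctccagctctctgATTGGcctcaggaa
Mvd (chr8:122443423-122443572, minus strand): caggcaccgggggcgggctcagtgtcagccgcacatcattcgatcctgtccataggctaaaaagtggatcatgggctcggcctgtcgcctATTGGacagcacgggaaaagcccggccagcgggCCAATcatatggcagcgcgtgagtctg
Cyp51 (chr5:4104698-4104847, minus strand): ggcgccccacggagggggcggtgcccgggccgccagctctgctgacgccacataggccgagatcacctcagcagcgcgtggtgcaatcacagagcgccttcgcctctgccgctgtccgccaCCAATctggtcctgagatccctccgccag
Acat2 (chr17:12960726-12960875, minus strand): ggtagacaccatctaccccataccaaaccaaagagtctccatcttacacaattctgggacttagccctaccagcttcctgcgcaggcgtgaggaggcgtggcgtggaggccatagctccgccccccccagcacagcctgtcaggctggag
Within 250 bases before the start, a CCAAT box was found in 18 of the 20 sterol synthesis genes (90.0%) and in 6 of the 7 called (85.7%). The share was 40.7% of 9710 tested genes with a window and 37.5% of all 27025 genes of the promoter table. The TCACNCCAC core was found in 1 of the 20, Hmgcs1, and in 1.28% of the tested genes with a window. These matches describe letters in a window and are not evidence of binding.

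In the first part of the pathway, which makes the isoprenoid precursors from acetyl-CoA, 6 of the 7 enzymes described here fell. Acat2, the cytosolic thiolase that joins acetyl-CoA, was at 214, 202 and 214 CPM in LPS and at 165, 154 and 160 CPM in LPS + M2-Exo (log2 fold change -0.39 ± 0.04, SE, n = 3 per group, adjusted p = 0.0123, edgeR). Hmgcs1, HMG-CoA synthase, was at 734, 719 and 728 CPM and at 549, 577 and 558 CPM (log2 fold change -0.37 ± 0.03, adjusted p = 0.00346, edgeR). In both genes the 3 LPS libraries lay close together and above all LPS + M2-Exo libraries. Mvk, mevalonate kinase, went from 69.8, 69.8 and 72.2 CPM to 56.5, 55.7 and 56.1 CPM, a tight pair of groups with a log2 fold change of -0.33 ± 0.04 (adjusted p = 0.0296, edgeR). Mvd, the decarboxylase that yields isopentenyl diphosphate, fell by 0.39 on the log2 scale (adjusted p = 0.0191, edgeR). The kinase between them, Pmvk, was the member of this stretch that did not pass, at 87.8% of its LPS level (adjusted p = 0.352, edgeR). Idi1, the isomerase of isopentenyl diphosphate, had the largest fall of the pathway. It was at 533, 525 and 531 CPM in LPS and at 355, 384 and 379 CPM in LPS + M2-Exo, which is 70.3% of the LPS level (log2 fold change -0.51 ± 0.04, adjusted p = 0.00248, edgeR). Fdps, farnesyl diphosphate synthase, stood at 76.9% of its LPS level (adjusted p = 0.00585, edgeR), and it overlaps the predicted gene Gm43738, with which its reads may be shared.

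In the second part, from squalene to cholesterol, most enzymes described here had lower values that did not pass the adjustment, and Cyp51 fell. Cyp51, lanosterol demethylase, was at 836, 805 and 838 CPM in LPS and at 656, 657 and 643 CPM in LPS + M2-Exo (log2 fold change -0.34 ± 0.03, adjusted p = 0.00451, edgeR). It overlaps Akap9, which had 18205 counts over the 6 libraries. Next in order of p, beyond the threshold, came Nsdhl (-0.34, adjusted p = 0.0534, edgeR), Dhcr7 (-0.26, adjusted p = 0.057, edgeR), Fdft1, squalene synthase, which overlaps the much more abundant Ctsb (-0.28, adjusted p = 0.069, edgeR), and Hsd17b7 (-0.25, adjusted p = 0.0717, edgeR). In these 4 genes every LPS + M2-Exo library lay below every LPS library. Sqle, squalene epoxidase, gave no such separation. It was at 215, 293 and 305 CPM in LPS and at 187, 248 and 246 CPM in LPS + M2-Exo, with replicate 1 low in both groups (log2 fold change -0.25 ± 0.15, adjusted p = 0.586, edgeR). Lbr and Ebp overlapped between the groups as well.

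Among the regulators, the sensor-side gene Insig1, itself an SREBP target, fell from 751, 763 and 760 CPM to 617, 622 and 597 CPM (log2 fold change -0.31 ± 0.03, adjusted p = 0.00662, edgeR). Srebf2 was at 91.0% of its LPS level without passing (adjusted p = 0.239, edgeR). Scap and Insig2 overlapped between the groups, at 105% and 98.1% of the LPS level. Per length, Hmgcs1 at 225 FPKM and Insig1 at 220 FPKM were the highest of the called sterol genes in LPS, and Mvk the lowest.

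**Figure D2:**
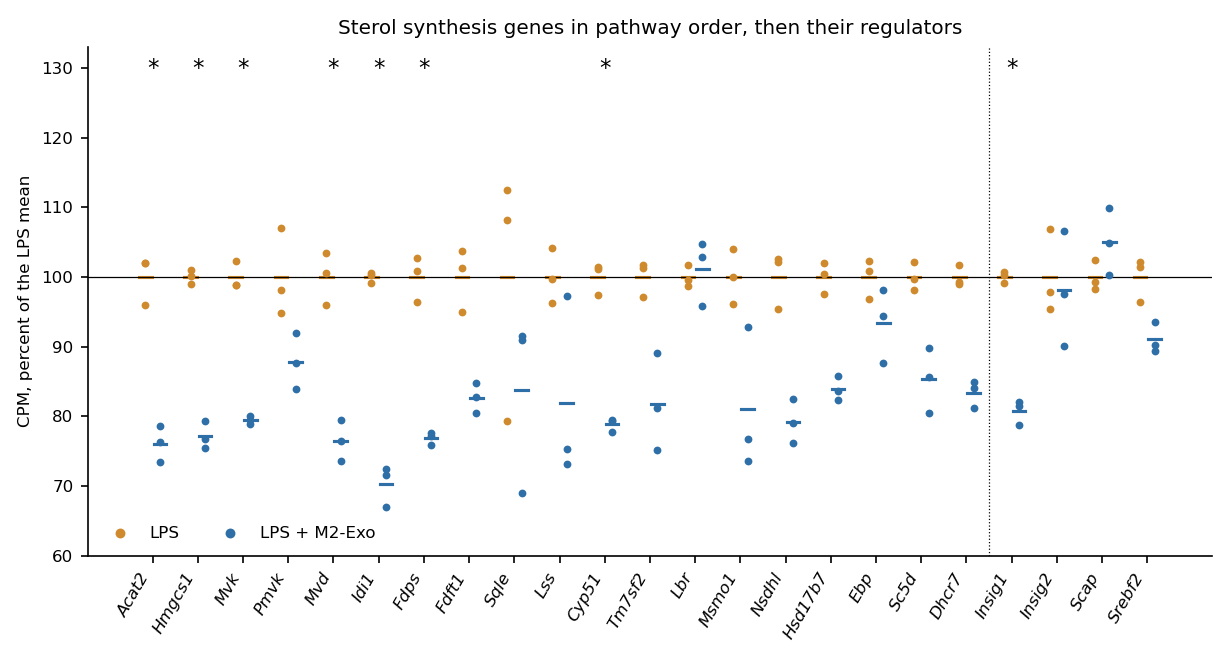
CPM of each library as a percentage of the mean of the LPS libraries (y axis) for 23 of the sterol synthesis genes in pathway order (x axis), with the regulators right of the dotted line; points are libraries, short bars are group means, and asterisks mark an adjusted p under 0.05. The blue LPS + M2-Exo points of the called genes lie below every LPS point, with means between 70.3% and 80.7% of the LPS mean, whereas Sqle, Lss, Ebp, Lbr, Insig2 and Scap overlap.

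Among genes that move cholesterol across membranes, the efflux pump went the other way. Abca1 rose from 19.1, 20.7 and 19.8 CPM to 27.4, 28.7 and 27.5 CPM, a log2 fold change of 0.49 ± 0.06 (adjusted p = 0.0347, edgeR), and it was the only gene of this list to pass. The cytosolic sterol carrier Stard4 (-0.23, adjusted p = 0.146, edgeR), the lysosomal cholesterol binding protein Npc2 (-0.18, adjusted p = 0.195, edgeR) and the cholesterol esterifying enzyme Soat1 (-0.31, adjusted p = 0.221, edgeR) had separate, lower values. Of 16 tested genes of the list, 13 lay below 0 (48.9% of all genes tested), with a median of -0.16. The related pump Abcg1 (82.7% of LPS) and the LXR genes Nr1h2 (106%) and Nr1h3 (91.1%) did not pass. DESeq2 called 1 gene of the list higher and 2 lower.

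Fatty acid and phospholipid synthesis was lower for some enzymes and level for others. Of 26 tested genes of this list, 2 fell and 0 rose, 11 had lower and 1 had higher values at an unadjusted p under 0.05, and the median log2 fold change was -0.097. Elovl6, which extends palmitate to stearate, was at 124, 121 and 124 CPM in LPS and at 79.6, 86.8 and 86.8 CPM in LPS + M2-Exo, 68.6% of the LPS level (log2 fold change -0.54 ± 0.05, adjusted p = 0.00416, edgeR). Pcyt2, the regulatory enzyme of phosphatidylethanolamine synthesis, was at 236, 239 and 248 CPM and at 199, 195 and 190 CPM (log2 fold change -0.31 ± 0.03, adjusted p = 0.0165, edgeR). Both genes were separate in all libraries. Outside the list, Aacs, the cytosolic enzyme that activates acetoacetate for lipid synthesis, fell from 222, 218 and 235 CPM to 187, 174 and 176 CPM (log2 fold change -0.33 ± 0.04, adjusted p = 0.0347, edgeR). The phosphatidate phosphatase Lpin1 (69.3% of LPS, adjusted p = 0.11, edgeR) and the acetate activating enzyme Acss2 (70.2% of LPS, adjusted p = 0.142, edgeR) had fitted differences of like size from fewer counts and did not pass. Acss2 overlaps Gss, which had 3245 counts in these libraries. The central enzymes differed less, with Fasn at 84.1% (adjusted p = 0.155, edgeR), Scd1 at 88.9% (adjusted p = 0.205, edgeR) and Acly at 90.6% (adjusted p = 0.226, edgeR) of the LPS level. Acsl4, which activates polyunsaturated fatty acids, was at 85.0% (adjusted p = 0.19, edgeR). Scd2, the most abundant gene of the list at 475 FPKM in LPS, was at 99.5% of its LPS level, and Srebf1, which encodes the regulator of this pathway, at 104%. Of 17 tested genes of fatty acid oxidation 0 were called by edgeR or by DESeq2, and 4 had an unadjusted p under 0.05. The median was 0.090, with Cpt1a, the entry enzyme of mitochondrial oxidation, at 109% and the fatty acid transporter Cd36 at 74.6% of LPS, neither past the threshold (adjusted p = 0.32 and 0.329, edgeR).

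Besides Aacs, 11 called genes lay outside the 3 lipid lists, and the largest changes were among them. Kirrel, an immunoglobulin-type cell adhesion protein (chr3:87078593-87174747), was at 76.2, 74.5 and 83.9 CPM in LPS and at 316, 303 and 299 CPM in LPS + M2-Exo, which is 3.91-fold higher (log2 fold change 1.97 ± 0.05, adjusted p = 4.87e-06, edgeR). Ncoa4, the receptor that delivers ferritin to autophagosomes (chr14:32159865-32179855), was at 36.8, 38.7 and 40.1 CPM and at 9.02, 9.66 and 9.27 CPM, 24.2% of its LPS level (log2 fold change -2.05 ± 0.07, adjusted p = 1.57e-05, edgeR). Rragd, a Rag GTPase that links amino acids to mTORC1 at the lysosome (chr4:32983037-33022180), rose from 29.1, 33.9 and 25.1 CPM to 73.7, 81.1 and 81.8 CPM (log2 fold change 1.43 ± 0.10, adjusted p = 0.00248, edgeR). All 3 genes were widely separate between these groups, yet in the hyperoxia libraries each stepped between levels inside a group. Kirrel had 4720, 1187 and 4687 counts in the Hyp libraries, Ncoa4 had 239, 1105 and 172 counts in the Hyp + M2-Exo libraries, and Rragd had 1119, 2985 and 2600 counts there. The part of such steps in the LPS comparison was not tested.

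Slc30a7, a zinc transporter of the Golgi (chr3:115938973-116007406), rose from 42.1, 40.1 and 42.1 CPM to 74.9, 71.6 and 72.1 CPM (log2 fold change 0.81 ± 0.05, adjusted p = 0.000607, edgeR). It was the only called gene of 16 tested genes for metal handling, and Mt1 (93.0% of LPS) and the zinc importers Slc39a6 (96.1%) and Slc39a10 (105%) did not pass. Pigb, a mannosyltransferase of GPI anchor synthesis, fell from 25.8, 26.8 and 26.0 CPM to 13.5, 15.1 and 14 CPM (log2 fold change -0.88 ± 0.07, adjusted p = 0.00346, edgeR). It overlaps Ccpg1, which had 2496 counts in these libraries against 2218 of Pigb itself. Naa60, an acetyltransferase of protein N-termini, fell from 43.1, 45.5 and 45.9 CPM to 29.5, 26.9 and 21.8 CPM (log2 fold change -0.78 ± 0.10, adjusted p = 0.0397, edgeR), and it overlaps Zfp597.

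Fgfr3, a receptor for fibroblast growth factors, was at 146, 150 and 149 CPM in LPS and at 113, 98.3 and 106 CPM in LPS + M2-Exo (log2 fold change -0.49 ± 0.05, adjusted p = 0.0142, edgeR). Nfic, a transcription factor of the nuclear factor I family, was at 225, 231 and 252 CPM and at 176, 174 and 178 CPM (log2 fold change -0.42 ± 0.05, adjusted p = 0.0165, edgeR). Neither gene's groups overlapped. D3Ertd254e rose from 16.2, 17.4 and 18.5 CPM to 29.0, 30.9 and 29.1 CPM (log2 fold change 0.77 ± 0.07, adjusted p = 0.00642, edgeR). Ube2s, a ubiquitin conjugating enzyme of the anaphase promoting complex, rose from 44.5, 43.7 and 42.7 CPM to 56.5, 59.3 and 57.7 CPM (log2 fold change 0.41 ± 0.05, adjusted p = 0.0191, edgeR), and it overlaps Rpl28. The last of the 25, Gm20547, had 0 counts in every LPS library and 20, 26 and 26 counts in LPS + M2-Exo, at least 8.95-fold higher against 3 counts per library (adjusted p = 0.025, edgeR). It lies across Cfb, complement factor B, on the same strand, and Cfb had 46, 43 and 41 counts in LPS and 15, 0 and 9 counts in LPS + M2-Exo. The counts of the pair together were 46, 43 and 41 in LPS and 35, 26 and 35 in LPS + M2-Exo. Reads of the pair cannot be assigned to 1 of them with certainty.

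**Figure D3:**
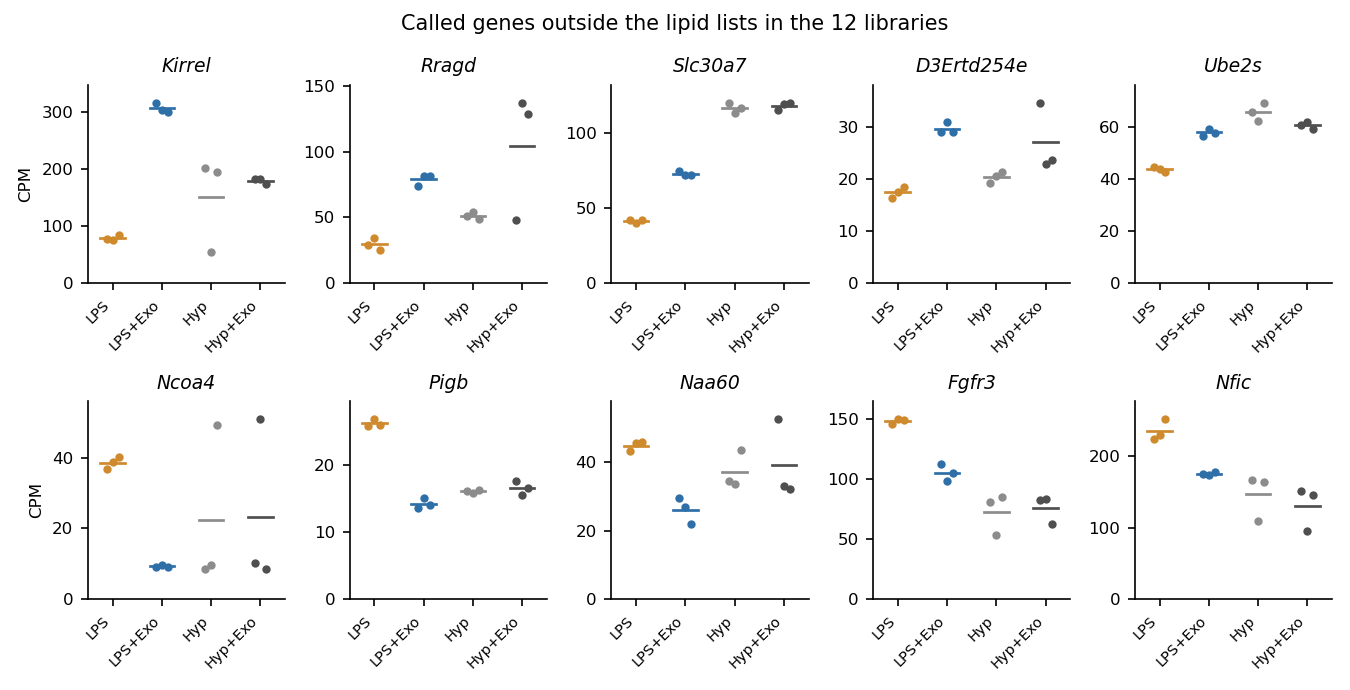
CPM (y axis, from 0) of 10 called genes outside the lipid lists in each of the 12 libraries, with the LPS pair on the left of the x axis and the hyperoxia pair on the right; points are libraries and bars are group means. In the LPS pair on the left of each panel the groups are separate. Kirrel, Rragd and Ncoa4 have a library far from the other 2 in a hyperoxia group. Naa60 also varies there, with its highest library less than 2 times its lowest.

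The 15 genes that followed the called ones in order of p were 12 with lower and 3 with higher values. Besides the 4 sterol genes above, those with lower values included the prostacyclin receptor Ptgir (6.34, 7.46 and 6.85 CPM against 3.55, 4.02 and 3.90 CPM, adjusted p = 0.0596, edgeR) and Gabarapl1, an autophagosome protein (84.6% of LPS, adjusted p = 0.0642, edgeR). They also included 3 genes of leukocytes, which moved with the macrophage markers above, whose part in them was not tested. Syk, a tyrosine kinase downstream of Fc receptors, was at 43.7, 41.7 and 39.3 CPM in LPS and at 29.9, 29.6 and 32.8 CPM in LPS + M2-Exo (adjusted p = 0.0803, edgeR). Dock2, a Rac activator of leukocytes, stood at 70.1% of LPS (adjusted p = 0.0762, edgeR), and Ncf1, a subunit of the phagocyte NADPH oxidase, at 74.7% (adjusted p = 0.078, edgeR). Those with higher values were the AP-1 subunit Fosl2 (114%, adjusted p = 0.0645, edgeR), the septin Sept11 (115%, adjusted p = 0.104, edgeR) and the pseudogene 6820431F20Rik (181%, adjusted p = 0.0856, edgeR). In 3 other genes outside the threshold the libraries of 1 group lay apart. Nek7, a kinase of the NLRP3 inflammasome, was at 36.4, 37.3 and 38.4 CPM in LPS and at 121, 42.9 and 125 CPM in LPS + M2-Exo (adjusted p = 0.235, edgeR), so that 2 libraries carried the difference. Ntn1, a secreted guidance cue, was at 75.0, 25.7 and 25.1 CPM against 91.9, 84.5 and 90.8 CPM (adjusted p = 0.368, edgeR). Tlr7, a receptor for single-stranded RNA, was at 8.04, 8.04 and 10.9 CPM against 20.9, 12.9 and 20.8 CPM (adjusted p = 0.162, edgeR).

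Macrophage genes had lower values with M2-Exo, with none called. Of 14 tested genes of this list, 13 lay below 0 (48.9% of all genes tested). At an unadjusted p under 0.05, 10 had lower (6.1%) and 0 had higher values (4.99%), and 10 were separate and lower (9.17%), with the share of all genes tested in brackets. The median log2 fold change was -0.32. The leukocyte phosphatase Ptprc was at 49.0, 52.0 and 44.3 CPM in LPS and at 32.3, 35.3 and 38.4 CPM in LPS + M2-Exo (log2 fold change -0.45 ± 0.08, adjusted p = 0.146, edgeR). The receptor of macrophage colony stimulating factor, Csf1r, was at 106, 108 and 97.6 CPM and at 79.9, 77.0 and 89.8 CPM (log2 fold change -0.34 ± 0.07, adjusted p = 0.159, edgeR). In both genes replicate 3 was the lowest LPS library and the highest LPS + M2-Exo library, and still the groups did not overlap. Lyz2, a gene of the surfactant list expressed by type II cells and by macrophages alike, was at 76.0% of LPS (adjusted p = 0.162, edgeR). By the Wald test of DESeq2, 5 genes of the macrophage list passed, all lower.

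Interferon-stimulated genes had the lowest median of all lists, -0.41, again with 0 genes called. All 28 tested genes lay below 0, 17 had lower values at an unadjusted p under 0.05, and 17 were separate and lower. Over all genes tested these shares were 48.9%, 6.1% and 9.17%. Mx2, an antiviral GTPase, was at 7.72, 5.06 and 4.86 CPM in LPS and at 2.41, 2.07 and 2.82 CPM in LPS + M2-Exo (log2 fold change -1.26 ± 0.23, adjusted p = 0.138, edgeR). Irf7, which amplifies interferon production, was at 18.4, 11.5 and 13.3 CPM and at 9.44, 8.91 and 9.10 CPM (adjusted p = 0.249, edgeR). Stat2, a subunit of the factor that interferon receptors activate, was at 77.2, 65.5 and 59.6 CPM and at 55.7, 51.0 and 52.5 CPM (adjusted p = 0.253, edgeR). In each of these genes LPS replicate 1 was the highest library. Summed over the list, CPM was 1318, 1047 and 1078 in LPS and 946, 938 and 949 in LPS + M2-Exo, and without LPS replicate 1 the median of the list was -0.20. DESeq2 called 5 of these genes, all lower. The interferon list has no gene in common with the macrophage list, the summed macrophage markers moved with it as given above, and their part in it was not tested.

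Genes of NF-kB targets, cytokines and TLR4 signalling had medians near 0, with members moving in both directions. Of 33 tested NF-kB target and cytokine genes 0 were called, and the median was -0.020. At an unadjusted p under 0.05, 3 had higher and 6 had lower values (27.3%, against 11.1% of all genes tested). The 6 included Tnfaip2 (-0.19, adjusted p = 0.35, edgeR) and Cxcl2 (-0.57, adjusted p = 0.43, edgeR). They also included Cfb, whose reads cannot be told with certainty from those of Gm20547. The chemokine Cxcl1 was at 103% and Ccl2 at 107% of LPS, the inhibitor gene Nfkbia at 103%, the acute phase gene Saa3 at 97.7% and Il6 at 101%, and of these only Nfkbia did not overlap between groups, with values of 214, 224 and 220 CPM against 228, 225 and 225 CPM. DESeq2 called 1 gene of the list, lower. Values were lower for complement C3 (183, 185 and 177 CPM against 162, 143 and 141 CPM, adjusted p = 0.159, edgeR), for Ccl5 (63.8% of LPS, adjusted p = 0.226, edgeR) and for lipocalin Lcn2 (86.7%, adjusted p = 0.261, edgeR). They were higher for the cytokines Lif (119%, adjusted p = 0.244, edgeR) and Csf1 (110%, adjusted p = 0.262, edgeR) and for the adhesion molecule Vcam1 (109%, adjusted p = 0.358, edgeR). Of 22 tested genes of TLR4 signalling 0 were called by either tool, and 16 lay below 0. At an unadjusted p under 0.05, 5 had lower and 1 had higher values (27.3%). Tlr4 itself was low, at 3.30, 3.39 and 3.29 CPM in LPS and at 0.661, 0.565 and 4.01 CPM in LPS + M2-Exo, with replicate 3 unlike the other two (adjusted p = 0.644, edgeR). Its adaptor Myd88 was at 85.4% (adjusted p = 0.207, edgeR) and its coreceptor Cd14, also a macrophage gene, at 83.7% of LPS (adjusted p = 0.343, edgeR).

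Lysosome genes had slightly lower values. Of 36 tested lysosome and TFEB target genes, 32 lay below 0, 16 had lower and 1 had higher values at an unadjusted p under 0.05, and 20 were separate and lower. Over all genes tested these shares were 48.9%, 6.1%, 4.99% and 9.17%. Their median was -0.0995, and the called genes were Rragd, which rose, and Ncoa4, which fell. Gpnmb, a lysosomal glycoprotein abundant in macrophages, was at 63.5, 66.5 and 58.6 CPM in LPS and at 46.2, 40.5 and 51.7 CPM in LPS + M2-Exo (adjusted p = 0.167, edgeR), and Fnip2, a folliculin partner, was at 81.7% (adjusted p = 0.155, edgeR). Atp6ap1, an accessory subunit of the proton pump, was at 76.5% (adjusted p = 0.104, edgeR). The summed level of the list lay between 7912 and 8185 CPM in LPS and between 7533 and 7588 CPM in LPS + M2-Exo. The macrophage markers moved in the same direction, and their part in these values was not tested.

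The list with the highest median was that of ATF4 and amino acids, at 0.12. Of its 30 genes 24 lay above 0, 12 had higher and 2 had lower values at an unadjusted p under 0.05, and 0 were called. Slc7a5, the large neutral amino acid transporter, was at 98.5, 97.3 and 104 CPM in LPS and at 116, 132 and 124 CPM in LPS + M2-Exo (log2 fold change 0.31, adjusted p = 0.135, edgeR). Psat1, of serine synthesis, was at 150, 138 and 150 CPM and at 201, 206 and 163 CPM (adjusted p = 0.205, edgeR), and Wars, the tryptophanyl-tRNA synthetase, was at 118% (adjusted p = 0.198, edgeR). The 2 with lower values were Ddit3 and Slc7a11, the cystine transporter, at 47.1, 48.2 and 43.8 CPM and at 34.9, 36.1 and 41.3 CPM (adjusted p = 0.226, edgeR). The transcript of Atf4 itself had a log2 fold change of 0.01. DESeq2 called 2 genes of this list, both higher.

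Genes of matrix and of mechanical signalling had slightly higher values. Of 32 tested TGF-beta and matrix genes, 24 lay above 0 (51.1% of all genes tested). At an unadjusted p under 0.05, 7 had higher and 1 had lower values (4.99% and 6.1% of all genes tested). Of the list 0 were called (2 by DESeq2), with a median of 0.078. Thrombospondin Thbs1 was at 205, 198 and 253 CPM in LPS and at 283, 284 and 296 CPM in LPS + M2-Exo (adjusted p = 0.19, edgeR), collagen Col12a1 at 117% (adjusted p = 0.155, edgeR) and the ligand Tgfb2 at 114% (adjusted p = 0.159, edgeR). The ligand Tgfb1 had lower values, at 83.1% (adjusted p = 0.138, edgeR). Among 18 YAP targets, Ankrd1 stood at 118% (adjusted p = 0.195, edgeR) and Ctgf at 115% (adjusted p = 0.205, edgeR), 2 of the 4 with higher values at an unadjusted p under 0.05. The 1 with lower values there was Nuak2, the largest fitted difference of the list (-0.38, adjusted p = 0.226, edgeR). Of the YAP targets 0 were called (2 by DESeq2). Glycolysis and hypoxia genes had a median of 0.054 over 32 genes, with Ldha at 118% (adjusted p = 0.214, edgeR) and Pgk1 at 112% (adjusted p = 0.226, edgeR). At an unadjusted p under 0.05, 6 had higher and 3 had lower values, and 0 were called (1 by DESeq2). Slc2a3, 1 of the 3, had the largest fitted difference of the list (-0.44, adjusted p = 0.301, edgeR). Splicing factors lay above 0 in 23 of 26 genes, with small sizes such as 111% for Srsf7 (adjusted p = 0.226, edgeR), with 5 at an unadjusted p under 0.05 and 0 called by either tool.

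No gene of the growth and identity lists was called. Type I genes differed more often than all genes at an unadjusted p, as did some other lists of this paragraph. Of 33 genes of DNA replication 0 were called and 0 had an unadjusted p under 0.05, with a median of 0.0038, and of 31 mitosis genes 0 were called and 2 had an unadjusted p under 0.05. Mki67 was at 898, 926 and 925 CPM in LPS and at 880, 909 and 913 CPM in LPS + M2-Exo. Of 11 tested surfactant and type II genes 0 were called (1 at an unadjusted p under 0.05, Lyz2), with Sftpc at 20.8, 22.6 and 21.5 CPM and at 22.4, 22.6 and 21.1 CPM. Of 14 type I genes 0 were called. At an unadjusted p under 0.05, 2 had higher and 2 had lower values (28.6%, against 11.1% of all genes tested). The groups did not overlap in 3 genes with higher and 4 with lower values, against 8.06% and 9.17% of all genes tested. Aqp5, a water channel, was at 66.3, 63.3 and 93.3 CPM and at 67.9, 93.2 and 65.5 CPM, so that 1 library stood above the others in each group. Of 21 tested junction genes 0 were called (2 at an unadjusted p under 0.05), and 15 lay below 0. The mitochondrially encoded genes had a median of -0.080, with 12 of 13 below 0, 3 at an unadjusted p under 0.05 (23.1%) and 0 called. Heat shock, NRF2, p53, chaperone and respiratory chain lists had medians between -0.012 and 0.049 with 0 called and between 2 and 6 genes each at an unadjusted p under 0.05. In that order these were 18.2%, 21.7%, 17.4%, 24.0% and 6.45% of their tested genes. By DESeq2, 1 chaperone gene, 1 NRF2 target and Lyz2 were also called in the lists of this paragraph, all lower. Of the genes on which the study rests, Mapk14, which encodes p38α, was at 57.7, 53.6 and 61.5 CPM in LPS and at 142, 84.1 and 57.7 CPM in LPS + M2-Exo, so 1 library overlapped (adjusted p = 0.407, edgeR). Zak was at 99.6% of LPS, and Gpx4 was at 108% (adjusted p = 0.411, edgeR). These are RNA levels per gene. For the effect of M2-Exo the paper measured ZAKα protein and p38 phosphorylation by western blot, and GPX4 as mRNA and protein.

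**Figure D4:**
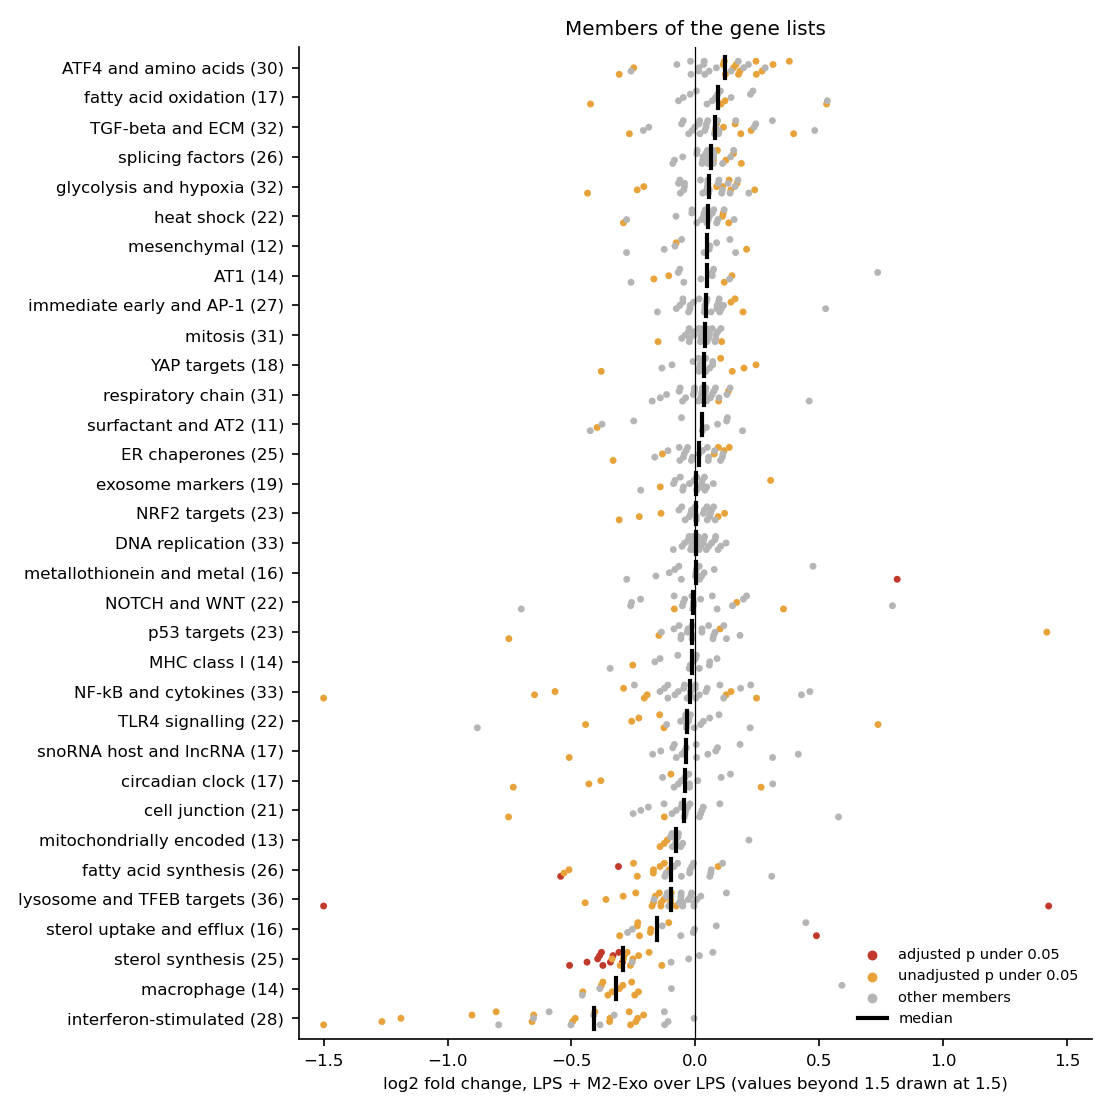
Log2 fold change of LPS + M2-Exo over LPS (x axis) for the tested members of each list with at least 10 tested genes (y axis, number tested in brackets), sorted by median; red points passed an adjusted p of 0.05, orange points an unadjusted p of 0.05, and black bars are medians. Sterol synthesis, at a median of -0.29, holds most of the red points, while the macrophage list (-0.32) and the interferon-stimulated list (-0.41) lie as far to the left with orange and grey points only.

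**Figure D5:**
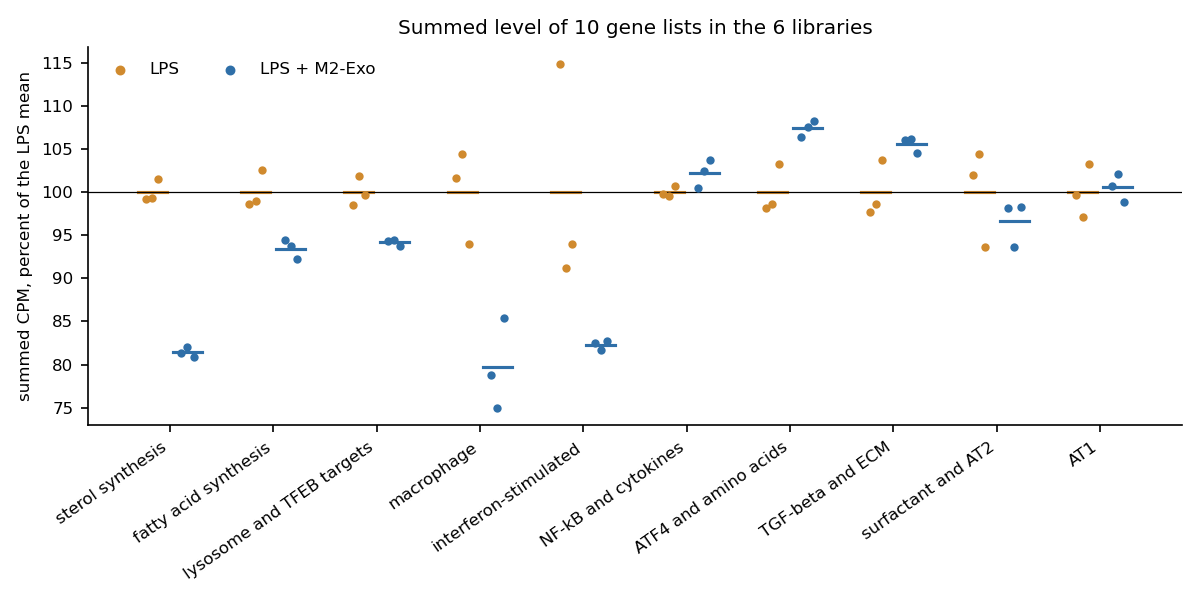
Summed CPM of 10 lists in each of the 6 libraries as a percentage of the mean of the LPS libraries (y axis); points are libraries and bars are group means. The sterol synthesis sum is tight in both groups, the macrophage sum is lower with a wide spread, and the interferon-stimulated sum is highest in LPS replicate 1.

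The same dose of M2-Exo in hyperoxia gave 14 called genes of 13815 tested (0.101%). Whether the effect differed between the injuries was tested by the interaction term over all 12 libraries, and 5 of 14187 genes passed (0.0352%), with 9.78% at an unadjusted p under 0.05. Of the genes called in LPS these were Slc30a7, Pigb, Acat2 and Ube2s, and the fifth was Usp36. In hyperoxia Slc30a7 had a log2 fold change of 0.02, Pigb of 0.05, Acat2 of 0.12 and Ube2s of -0.12. For the other sterol genes the difference did not pass. Idi1 had -0.51 in LPS and 0.14 in hyperoxia, and the difference of -0.66 had an adjusted p of 0.119 (edgeR). Hmgcs1 had -0.37 and 0.22, with an adjusted p of 0.202 (edgeR) for the difference. Elovl6, of the fatty acid list, had -0.54 and 0.21, and its difference did not pass either (adjusted p = 0.0739, edgeR). The median of the 25 sterol synthesis genes in hyperoxia was 0.073, and 6 of the 25 lay below 0, against 50.7% of all genes tested. The medians in hyperoxia were 0.013 for the interferon-stimulated list and -0.11 for the macrophage list. For Kirrel, Ncoa4 and Rragd the difference between the injuries had adjusted p of 0.284, 0.538 and 0.791 (edgeR), in libraries whose values stepped within groups as described.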

How the data were processed

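RNA of MLE-12 cells was sequenced from poly(A) libraries on an Illumina instrument. The authors aligned reads to GRCm38 with HISAT2 2.0.4, assembled them with StringTie 1.3.0 and deposited raw counts per gene and FPKM, the count scaled by gene length and library size. Reads were counted without a stated use of strand, and 37.53% of genes overlap another. Here, counts were fitted with the quasi-likelihood test of edgeR 4.0.16 (R 4.3.3) after TMM scaling and filterByExpr, with Benjamini-Hochberg adjustment over all genes tested and a threshold of 0.05. Between the injuries, the interaction term was fitted over all 12 libraries. CPM values are TMM scaled. The biological coefficient of variation was 9.1%, which together with 16021833 or more counts per library sets the precision. Replicates differed by more than sampling noise.

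The text names the 40 genes of smallest p, the leading or all members of 36 lists and 1 list of the genes the study measured, and the largest separate changes. Usp36, Atf4, Ddit3 and genes that overlap a named gene were named after their values were seen. The comparison and the lists were chosen with earlier results of these data known, so list counts are descriptions. Alternatives were RLE or no scaling, other count filters, DESeq2 1.42.0, the exact test of edgeR, limma 3.58.1 on log2 FPKM, all 12 libraries, a replicate block and each library left out. Tests were checked on simulated data. Some genes of the lists entered the counts but are not reported here by name.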

Additional observations from a re-analysis of the deposited data

Results flagged for a closer look

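The effect of M2-Exo differed between LPS and hyperoxia in 5 genes by the interaction test of edgeR. The difference, as the effect in LPS minus that in hyperoxia on the log2 scale, was 0.79 for Slc30a7 (adjusted p = 0.000138, edgeR), -0.94 for Pigb (adjusted p = 0.00246, edgeR) and -0.52 for Acat2 (adjusted p = 0.00639, edgeR). It was 0.43 for Usp36, a nucleolar deubiquitinase (adjusted p = 0.0221, edgeR), and 0.52 for Ube2s (adjusted p = 0.0244, edgeR). In Usp36 the effect in LPS did not pass, at 62.4, 57.6 and 62.4 CPM without and 68.5, 66.6 and 68.2 CPM with M2-Exo (adjusted p = 0.308, edgeR), while in hyperoxia it fell by 0.27 on the log2 scale (adjusted p = 0.0423, edgeR).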

How the results depend on the processing

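Of 19 other ways to count the called genes of LPS + M2-Exo against LPS, 12 stayed within 1.5 times the 25. DESeq2 called 130 genes (46 higher, 84 lower) and the exact test of edgeR 101 (19 higher, 82 lower), and 24 and 25 of the 25 were among them. A fit of all 12 libraries called 12 and the replicate block 6. Deviations of same-numbered libraries from their group means correlated at 0.000516, 0.0524 and 0.0097, so the numbers were not taken as pairs. An unadjusted p under 0.05 gave 1481 genes, of which 3 also had a log2 difference of 2 or more in size. Leaving out 1 library gave between 21 and 39 genes, with 39 without LPS replicate 1, and kept 14 to 21 of the 25. Among list members the 16 calls became 54 with DESeq2, 36 with the exact test, 8 with all 12 libraries, 4 with the replicate block and 11 to 17 with 1 library left out. The 5 interaction calls became 13 without a filter, 70 with DESeq2, 1 with the replicate block and 4 to 34 with 1 library left out (34 without Hyp + M2-Exo replicate 1). The causes were not tested. Of 110 genes refitted singly, 6 changed sign, all uncalled and close to 0, and only when 1 library was left out. Their log2 fold changes then ranged from -0.021 to 0.051 for Atf4, from -0.14 to 0.13 for Il6, from -0.091 to 0.029 for Insig2, from -0.025 to 0.20 for Nr1h2, from -0.063 to 0.014 for Saa3 and from -0.025 to 0.012 for Zak. Of the 85 uncalled genes among the 110, 42 were called under at least 1 alternative. With 3 libraries a group, genes with few counts and small differences stay below detection.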

Other observations

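Some genes stepped between levels among libraries of 1 group. By a rule chosen after seeing the data, 9040 genes with a mean of at least 200 counts in each of the 4 groups were searched for groups whose highest library was at least 2 times the lowest. There were 102 such genes in LPS, 93 in LPS + M2-Exo, 80 in Hyp and 79 in Hyp + M2-Exo, and 209 (2.31%) in any group. Of the 23 called genes in this set, 2 stepped, Kirrel and Rragd. Ncoa4, which stepped in both hyperoxia groups, lay under the count limit in LPS + M2-Exo, at 150, 154 and 171 counts.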
